A study of Mus musculus with 7 samples.

Results

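The genes described here were Ptx3, Nptx1, Nptx2, Nptxr, Serpina3n, C4b, C3 and Lcn2, 8 of the 32285 genes counted, in cells of the ventricular-subventricular zone (V-SVZ), the stem cell niche on the wall of the lateral ventricle. The set was chosen by the UMI counts of Ptx3, which were higher in Prdm16 conditional knockout (cKO) than in control cells resembling neural stem cells (NSCs), to which 3 neuronal pentraxins and 4 reactive glia genes were added. Ptx4, Apcs and Crp, further genes of the pentraxin family, were not in the set. The comparison of cKO with control in NSC-like cells is therefore given as a description, without a test, for every gene. All 8 genes were matched by symbol in the 7 libraries.

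The 3 control libraries were labelled Prdmflox/flox and carried no Cre in their label. The 3 cKO libraries were labelled hGFAP-Cre+/-; Prdm16flox/flox. The single double knockout (DKO) library was labelled hGFAP-Cre+/-; Prdm16flox/flox; Vcam1flox/flox. The human GFAP promoter drives this Cre in radial glia and astrocytes. Cells descended from radial glia inherit the deletion, so most neural types can carry it while vessel cells and microglia should not. Each library pooled tissue of 2 to 3 mice of both sexes aged 31 to 33 days, so an animal cannot be separated from its pool. The control mice differed from the cKO mice in carrying no Cre as well as in the deletion, and these 2 differences cannot be told apart.

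Single-cell RNA-seq with unique molecular identifiers (UMIs) gave 43346 cells with 500 to 7000 genes and at most 10% mitochondrial UMIs, 1868 to 9502 cells a library. The filter kept 49.8% and 47.2% of the barcodes of cKO replicates 2 and 3, against 70.2% to 74.7% in the other libraries. Median depth was 4960 to 8318 UMIs a cell. Clusters were called "X-like" from marker genes, and 11 types were compared: NSC-like (5313 cells), astrocyte-like (2294), ependymal-like (2758), transit-amplifying progenitor- or TAP-like (3116), neuroblast-like (8190), neuron-like (2243), oligodendrocyte-like (5198), oligodendrocyte progenitor- or OPC-like (1552), endothelial-like (2758), mural-like (1504) and microglia-like (1096). The NSC-like cluster also met the astrocyte markers, so the boundary between NSC-like and astrocyte-like cells rests on the clustering. Of 3 clusters left unnamed, cluster 10 held 1745 shallow cells, of which 1248 came from control replicate 2. Libraries shared 340 cell barcode sequences, 2 to 70 for a pair of libraries. Levels below are CPM, the UMIs of a gene per 1000000 UMIs of that library and cell type, and DKO values carry 95% exact Poisson intervals that cover counting error only. A lower level in summed cells cannot tell fewer expressing cells from less RNA in each.

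Prdm16 and Vcam1 did not check the labels. Prdm16 in NSC-like cells was 64.1 to 75.1 CPM in control, 46.9 to 55.5 CPM in cKO and 57.2 CPM in the DKO library, and a 3′ tag outside the deleted part checks nothing. Vcam1 in astrocyte-like cells was 310.3 to 405.0 CPM in control and 184.7 CPM in the DKO library. Prm1, a sperm protamine gene, had a UMI in 14 of 21952 control cells, 3155 of 14499 cKO cells and 1184 of 6895 DKO cells, and so followed the Cre label.

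Pentraxins are secreted or membrane-bound proteins that share a C-terminal pentraxin domain and assemble into multimers. Ptx3 is the long pentraxin of innate immunity, which binds C1q and matrix proteins and is induced by inflammatory signals in many cell types, astrocytes among them. Nptx1 and Nptx2 are secreted neuronal pentraxins that cluster AMPA-type glutamate receptors at synapses, and Nptxr is their membrane-bound partner. Serpina3n is a secreted serine protease inhibitor, C4b and C3 are complement components, and Lcn2 is a siderophore-binding lipocalin. Serpina3n, C4b and Lcn2 are widely used as reactive glia genes, and C3 as a marker of the reactive state called A1.

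The 250 bases before the annotated start of Ptx3 and of Serpina3n are shown because the results below turn on these genes, Ptx3 in the cKO libraries and Serpina3n in the DKO library. Both come from RefSeq, build GRCm38.p6, plus strand, chr3:66219637-66219886 for Ptx3 and chr12:104406458-104406707 for Serpina3n.
Ptx3: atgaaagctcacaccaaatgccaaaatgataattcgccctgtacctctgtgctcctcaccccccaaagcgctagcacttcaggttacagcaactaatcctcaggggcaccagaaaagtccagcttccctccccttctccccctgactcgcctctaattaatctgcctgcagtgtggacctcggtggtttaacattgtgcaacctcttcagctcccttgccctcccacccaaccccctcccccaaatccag
Serpina3n: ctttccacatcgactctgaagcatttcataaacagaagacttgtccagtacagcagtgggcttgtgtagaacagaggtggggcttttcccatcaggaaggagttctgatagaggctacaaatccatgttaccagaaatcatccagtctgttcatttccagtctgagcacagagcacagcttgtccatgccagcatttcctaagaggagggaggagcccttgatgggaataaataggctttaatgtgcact
Neither window held TGANTCA (the AP-1 form), TTCNNNGAA (the STAT form) or the NF-kB consensus on either strand, so no base is in capitals. These 3 motifs occurred in 6.75%, 7.02% and 7.25% of 32851 windows of the same length. The absence says only that these letters are not in these windows. In GRCm38 (GENCODE vM21), Ptx3 is a protein-coding gene at chr3:66219910-66225805 on the plus strand and Serpina3n one at chr12:104406729-104414329 on the plus strand.

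Among the 11 named types, Ptx3 was highest in NSC-like cells in every library. Its level there was 40.6, 36.4 and 28.7 CPM in control replicates 1 to 3, 98.4, 210.4 and 234.9 CPM in cKO replicates 1 to 3, and 86.6 CPM (80.6 to 92.97) in the DKO library. The groups did not overlap, and the DKO library lay between the highest control and the lowest cKO library. Both statements depended on the integration of the libraries. Without it only 14 and 24 NSC-like cells were left in cKO replicates 2 and 3. Ptx3 was then 28.2 to 40.5 CPM in control, 36.5, 52.0 and 180.7 CPM in cKO and 24.7 CPM in the DKO library. So cKO replicate 1 lay inside and the DKO library below the control range. A cluster of 4686 cells that met astrocyte and NSC markers, with Prm1 among its leading genes, was then left unnamed for its low depth. The NSC-like and astrocyte-like cells compared without integration, here and below, were therefore not the same cells. This contrast chose the gene: in it, every cKO library lay above every control library for 6.88% of 14331 genes, given for scale. NSC-like cells held 40.2% to 47.4% of all Ptx3 UMIs in control, 39.4% to 45.9% in cKO and 39.0% in the DKO library, so the ranges of this share overlapped.

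In astrocyte-like cells, Ptx3 rose in cKO. It was 10.8, 5.1 and 5.8 CPM in control, 55.1, 79.4 and 100.3 CPM in cKO and 56.3 CPM (48.4 to 65.2) in the DKO library. Every cKO library was far above every control library, a pattern that 7.16% of the genes tested in this type showed, and the DKO library lay within the cKO range. The mean was 7.24 ± 3.103 CPM in control and 78.3 ± 22.6 CPM in cKO (SD, n = 3 each), 10.8-fold higher. The log2 fold change was 3.47 ± 0.28 (SE), with an adjusted p of 3.6e-05 by edgeR's quasi-likelihood test over all 12128 genes tested in this type. In that test 1.03% of genes were called higher and 0.206% lower. The difference was present in the libraries made with each Cell Ranger version, 2.98 on the log2(CPM + 1) scale for version 6.0.1 and 3.89 for version 6.1.1. Without integration of the libraries only 1 cKO library had enough astrocyte-like cells to be summed, and the log2 fold change was 1.66 and not called.

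**Figure D1:**
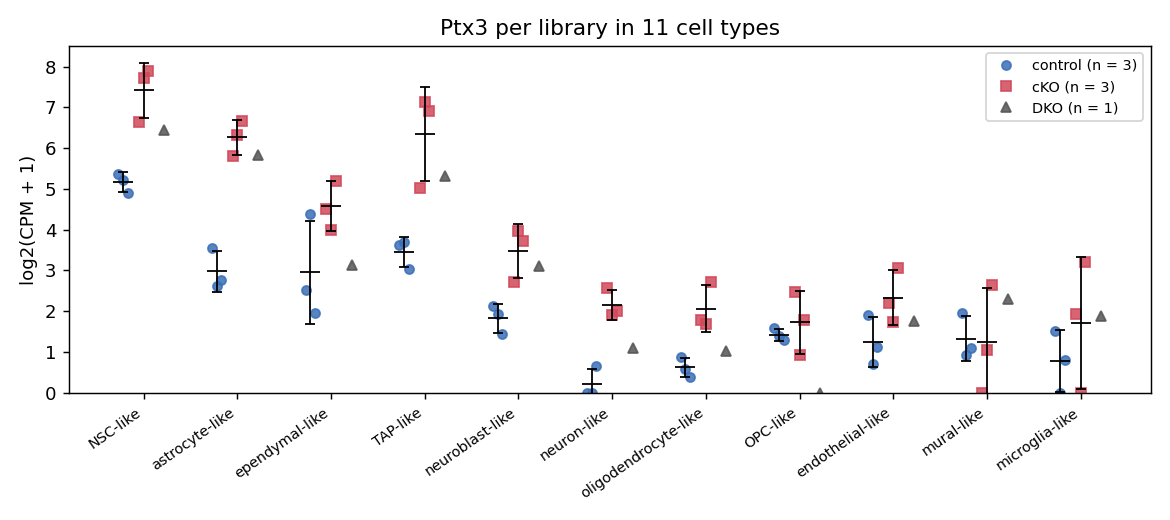
Ptx3 as log2(CPM + 1) in 11 cell types, 1 point per library (circles control, squares cKO, triangles DKO), with the mean and SD of each group of 3 as bars. In astrocyte-like cells the cKO libraries sit at 55.1 to 100.3 CPM, above the control libraries at 5.1 to 10.8 CPM, and NSC-like cells hold the highest values in each group.

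The share of astrocyte-like cells with a Ptx3 UMI followed the same order. It was 4.38% to 5.10% in control, 16.6% to 56.2% in cKO and 29.5% in the DKO library. With each cell thinned to 3000 UMIs, which left out 115 control, 42 cKO and 10 DKO cells, the shares were 1.31% to 3.52%, 11.6% to 26.8% and 14.6%. Endothelial-like cells, which should carry no deletion and serve as a reference for free RNA, had a thinned share of 0% to 1.68% in cKO and 0% to 0.562% in control. In each group the astrocyte-like shares lay above the endothelial-like ones. The reference was itself higher in cKO, at a log2 fold change of 1.81 ± 0.73 (unadjusted p 0.026, adjusted p 0.99975 by edgeR). The part of free RNA in the astrocyte-like values was not tested.

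Within the cKO and DKO libraries, Ptx3 was also compared between cells with and without a Prm1 UMI. In astrocyte-like cells of cKO replicate 1 it was 104.5 CPM in 119 marked cells and 30.97 CPM in 290 unmarked ones. In cKO replicates 2 and 3 the values were close, 79.6 against 79.0 CPM and 103.5 against 92.8 CPM. In the DKO library they were 87.5 and 35.6 CPM. Unmarked cells therefore still held Ptx3 above the control range in all 4 libraries, and a missing Prm1 UMI does not show that a cell lacks Cre. Marked cells were deeper in each library, at medians of 5803 to 13704 UMIs against 4842 to 8848. With cells thinned to 3000 UMIs, the share with a Ptx3 UMI was 23.1%, 17.8% and 26.1% in marked and 6.49%, 19.5% and 28.1% in unmarked cells of cKO replicates 1 to 3, and 23.5% and 9.66% in the DKO library.

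In the TAP-like and neuroblast-like cells that descend from NSCs, Ptx3 was lower than in NSC-like cells of the same library. The unnamed cluster 8 was above them in 1 library, at 218.5 CPM in cKO replicate 2, against 210.4 CPM in its NSC-like cells. TAP-like cells were named from genes of cell division. When cells were assigned by marker genes, 1831 of these 3116 were TAP and 1223 neuroblast. Ptx3 in TAP-like cells was 11.4, 11.99 and 7.2 CPM in control, 31.5, 138.2 and 118.9 CPM in cKO and 38.9 CPM (35.4 to 42.7) in the DKO library. The groups did not overlap, but cKO replicate 1 stood well below cKO replicates 2 and 3. Replicates 2 and 3 also kept a smaller share of barcodes, as given above. In NSC-like cells, 232 had and 631 lacked a Prm1 UMI in cKO replicate 1. These counts were 149 and 62 in replicate 2 and 496 and 152 in replicate 3. The part of either in the Ptx3 values was not tested. The TAP-like log2 fold change was 3.32 ± 0.71 with an adjusted p of 0.595 by edgeR, so the change was not called. It was called when cKO replicate 1 was left out (log2 3.76, adjusted p 2.8e-09) and by DESeq2 (adjusted p 0.00012). No gene was called in this type by edgeR (0% of 13972), 918 had an unadjusted p under 0.05, and DESeq2 called 66 higher and 5 lower. Every cKO library lay above every control library for 4% of those genes.

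In neuroblast-like cells, the migrating immature neurons, Ptx3 was lower again. It was 3.4, 2.8 and 1.7 CPM in control, 5.6, 14.6 and 12.3 CPM in cKO and 7.6 CPM (6.2 to 9.3) in the DKO library. The groups did not overlap, which held for 5.13% of 13810 genes in this direction, and edgeR called 0.0217% of them higher. The log2 fold change was 2.11 ± 0.39 with an adjusted p of 0.121. The change was called by DESeq2 (adjusted p 0.0011), without cKO replicate 1 (log2 2.43), with no filter on low counts (log2 2.08, adjusted p 5.3e-06), with the replicate block (log2 2.06, adjusted p 0.0052) and at a clustering resolution of 0.3, where the log2 fold change was 3.16 with an adjusted p of 0.00027.

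In ependymal-like cells, the ciliated lining of the ventricle, Ptx3 was 4.7, 19.8 and 2.9 CPM in control, 21.9, 14.8 and 35.9 CPM in cKO and 7.8 CPM (4.8 to 12.1) in the DKO library. The groups overlapped because control replicate 2 lay above cKO replicate 2. The log2 fold change was 2.15 ± 0.68 with an adjusted p of 0.425, against 0.173% of 13903 genes called higher. The effect in astrocyte-like minus ependymal-like cells was 1.29 on the log2 scale with an adjusted p of 0.497, so the effects of the 2 types were not shown to differ. Without control replicate 2 this difference was 0.51 and the ependymal-like log2 fold change 2.84.

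Elsewhere Ptx3 was low. Ptx3 was not called in OPC-like cells (log2 0.85 ± 0.72, adjusted p 0.963 by edgeR). It had 5, 3 and 6 UMIs there in control and 10, 1 and 7 in cKO. In oligodendrocyte-like cells it was 0.3 to 0.8 CPM in control and 2.2 to 5.6 CPM in cKO, and in neuron-like cells 0 to 0.6 CPM and 2.7 to 4.9 CPM. In both types the groups did not overlap, as held in this direction for 1.97% and 1.9% of the genes tested, and neither difference was called (adjusted p 0.999 by edgeR for each). In oligodendrocyte-like cells Ptx3 was called by DESeq2 (adjusted p 0.020) and with no filter on low counts (0.00079). In neuron-like cells it was called with no filter (log2 3.11, adjusted p 0.046) and when cells were assigned by marker genes (log2 3.65, adjusted p 0.015). In the types that should not carry the deletion, it was 0.6 to 2.7 CPM in control and 2.3 to 7.3 CPM in cKO (endothelial-like), 0.895 to 2.89 CPM and 0 to 5.29 CPM (mural-like), and 0 to 1.8 CPM and 0 to 8.3 CPM (microglia-like). Over all cells Ptx3 was 5.81 to 10.5 CPM in control and 25.7 to 65.1 CPM in cKO. The part of free RNA in these low values was not tested.

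By mean level the order of types in control was NSC-like, TAP-like, ependymal-like, astrocyte-like and neuroblast-like, at 35.2, 10.2, 9.13, 7.24 and 2.62 CPM. The TAP-like, ependymal-like and astrocyte-like ranges overlapped. In cKO the order was NSC-like, TAP-like, astrocyte-like, ependymal-like and neuroblast-like, at 181.2, 96.2, 78.3, 24.2 and 10.8 CPM. There the NSC-like, TAP-like and astrocyte-like ranges overlapped one another, and the ependymal-like range ended at 35.9 CPM, below every astrocyte-like value. Over the 77 library and type sums, the genes most like Ptx3 by Pearson's r of log2(CPM + 1) were Veph1 (0.82), Otx1 (0.80), Kcne1l (0.80), Lix1 (0.78) and Rorb (0.78). These sums share libraries and depth.

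C4b, the complement component C4, fell in astrocyte-like cells and was higher, without passing the test, in ependymal-like cells of cKO. In astrocyte-like cells it was 70.6, 112.4 and 79.4 CPM in control, 38.9, 39.2 and 30.99 CPM in cKO and 55.7 CPM (47.8 to 64.5) in the DKO library. The highest cKO library lay below the lowest control library, as for 6.87% of the genes tested, and the DKO library lay between the groups. The mean fell from 87.5 ± 22.01 to 36.4 ± 4.65 CPM (SD, n = 3 each), a log2 fold change of -1.27 ± 0.20 with an adjusted p of 0.0034 by edgeR.

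That fall depended on how astrocyte-like cells were separated from NSC-like cells. When cells were assigned by marker genes instead of clusters, C4b was 73.9 to 113.3 CPM in control and 64.7 to 116.3 CPM in cKO, and the log2 fold change was 0.052 with an adjusted p of 0.96. Without integration it was -0.37 and not called. Joined, NSC-like and astrocyte-like cells held 88.7 to 130.4 CPM in control and 94.8 to 175.6 CPM in cKO, so the groups overlapped. The 7 astrocyte markers summed to 4673 to 4969 CPM in control and 5381 to 5493 CPM in cKO astrocyte-like cells, and the 5 NSC markers to 1362 to 1571 and 1120 to 1467 CPM. Their part in the C4b result was not tested.

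**Figure D2:**
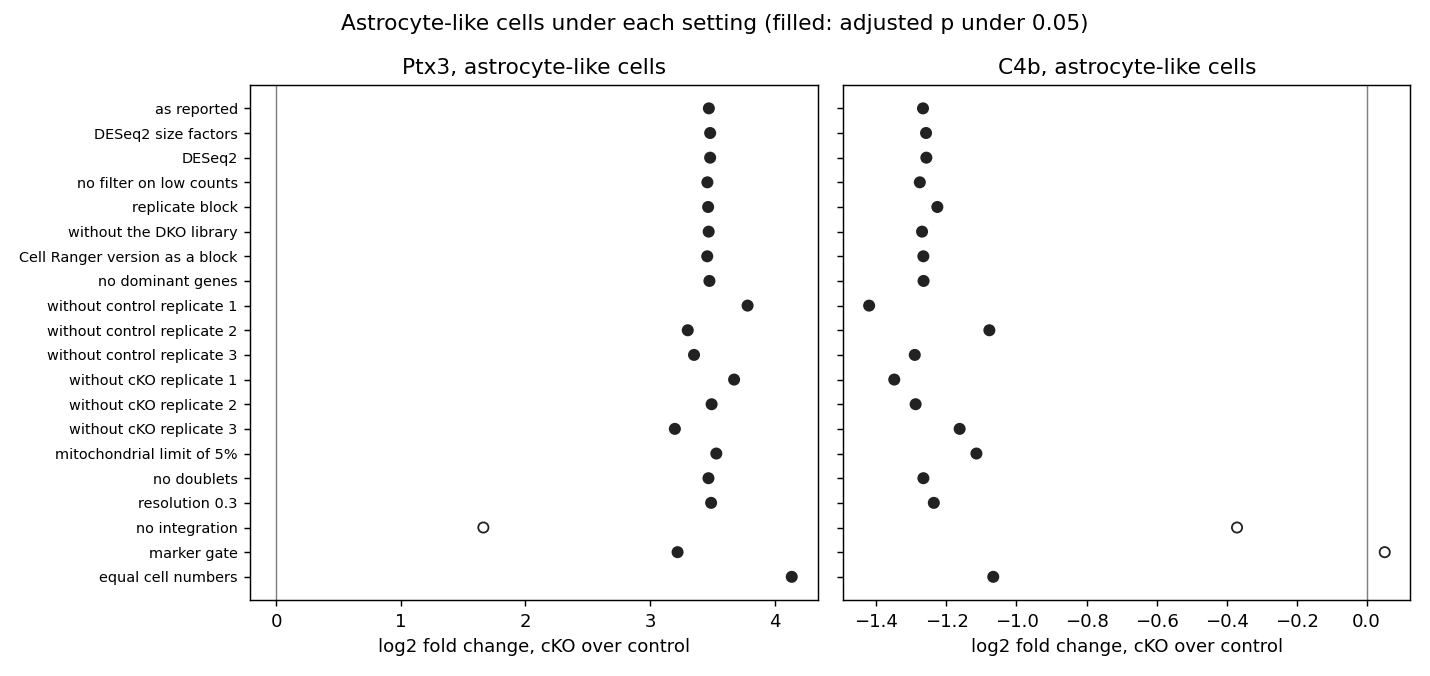
Log2 fold change of Ptx3 (left) and C4b (right), cKO over control, in astrocyte-like cells under each processing setting, filled where the adjusted p was under 0.05. Ptx3 runs from 1.66 without integration to 4.14 with equal cell numbers, while C4b runs from -1.42 to 0.052, with the marker gate on the other side of 0.

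In ependymal-like cells C4b was 11.4, 15.6 and 11.3 CPM in control, 20.5, 33.8 and 56.2 CPM in cKO and 25.5 CPM (19.7 to 32.5) in the DKO library. All cKO libraries and the DKO library lay above all control libraries, and 5.61% of genes tested in this type showed the first pattern. The log2 fold change was 1.70 ± 0.40 with an adjusted p of 0.207, so it was not called by edgeR, while DESeq2 gave an adjusted p of 0.0038. The effect in astrocyte-like minus ependymal-like cells was -2.82 ± 0.44 on the log2 scale, with an adjusted p of 0.027 by the edgeR interaction test, in which 1.05% of 11616 genes were called. The call was lost when any control replicate or cKO replicate 2 was left out (adjusted p 0.0895 to 0.1502).

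Cells with a Prm1 UMI held more C4b than cells without one in the ependymal-like type. The same held in NSC-like cells, at 173.1, 238.7 and 233.8 against 82.95, 177.7 and 133.6 CPM in cKO replicates 1 to 3. In the DKO library the NSC-like values were 162.7 and 59.7 CPM. In astrocyte-like cells the order differed between libraries. Ptx3 in ependymal-like cells was also higher in marked than in unmarked cells of each cKO library, and was 9.20 and 6.99 CPM in the DKO library. In NSC-like cells the order of Ptx3 differed between libraries. It was 176.9, 196.9 and 227.9 CPM in marked and 52.1, 270.5 and 273 CPM in unmarked cells of cKO replicates 1 to 3. The DKO library held 132.2 and 45.7 CPM there. In marked ependymal-like cells of cKO replicates 1 to 3 the C4b values were 33.5, 63.2 and 98.8 CPM. Unmarked cells held 14.7, 23.4 and 20.3 CPM. In the DKO library marked and unmarked ependymal-like cells held 33.7 and 20.3 CPM. Marked cells were few, 25 to 124 a library, and far deeper, at medians of 15846 to 22676 UMIs against 1518 to 6025. Thinned to 3000 UMIs, the share with a C4b UMI was 10.9%, 23.8% and 23.5% in marked and 3.77%, 8.57% and 2.65% in unmarked cells of cKO replicates 1 to 3, and 8.70% and 6.82% in the DKO library. The 4 choroid plexus markers summed to 517.5 to 2476 CPM in control ependymal-like cells, 143.4 to 657.6 CPM in cKO and 3220 CPM in the DKO library, and their part in the ependymal-like results was not tested.

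In NSC-like cells C4b was 95.3, 139.8 and 101.4 CPM in control, 116.4, 227.5 and 218.2 CPM in cKO and 108.5 CPM in the DKO library, with cKO replicate 1 inside the control range. Without integration, the NSC-like cells left held C4b at 93.2 to 125.7 CPM in control and 64.0 to 127.1 CPM in cKO. The cKO mean was then below the control mean, at 92.6 against 105.2 CPM. In microglia-like cells C4b was 8.3 to 37.4 CPM in control and 9.9 to 19.7 CPM in cKO. C4a, a near-identical neighbour, had at most 4.35 CPM in any library and type, and reads of the 2 genes could be split by the counting. C4b is annotated at chr17:34728380-34743882 on the minus strand in GRCm38. The genes most like C4b were Sdc4 (0.89), Naprt (0.89) and Apoe (0.88).

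**Figure D3:**
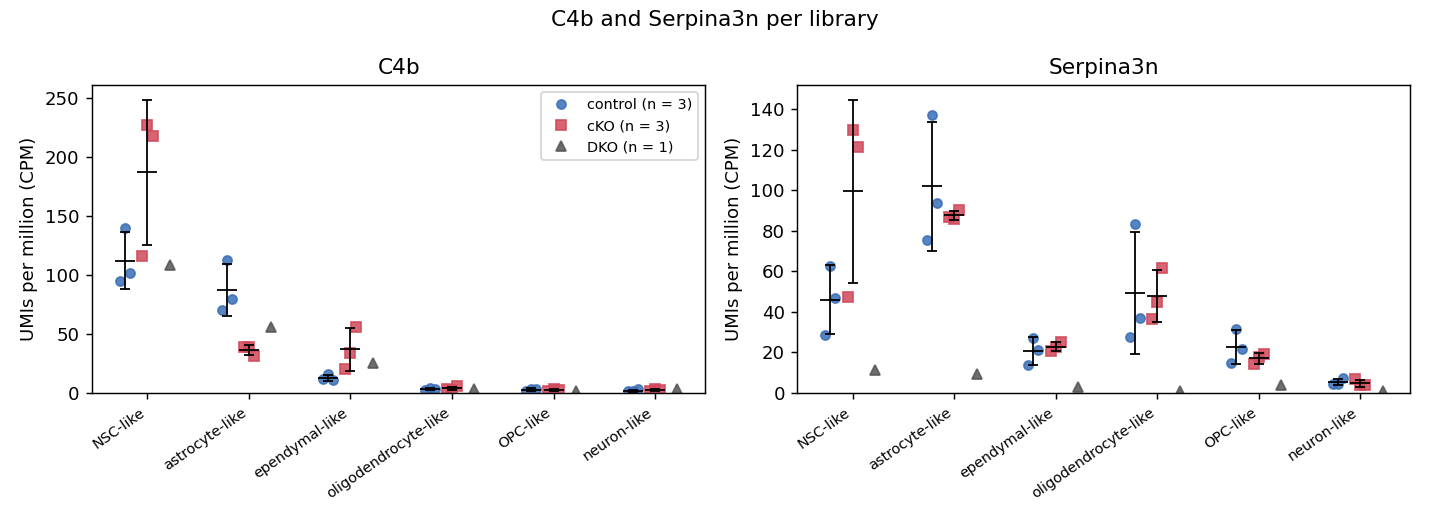
C4b (left) and Serpina3n (right) in CPM per library in 6 cell types, with the mean and SD of each group of 3. C4b in astrocyte-like cells is at 30.99 to 39.2 CPM in cKO and 70.6 to 112.4 CPM in control, and Serpina3n in the DKO library lies below every other library in each type shown.

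Serpina3n, an inhibitor of serine proteases that astrocytes and oligodendrocytes make in many injuries, was not called between cKO and control in any type tested. In astrocyte-like cells it was 75.2, 137.0 and 93.5 CPM in control and 86.8, 85.9 and 90.0 CPM in cKO, with a log2 fold change of -0.20 ± 0.20 and an adjusted p of 0.804. In NSC-like cells it was 28.4, 62.7 and 47.0 CPM in control and 47.4, 129.7 and 121.2 CPM in cKO, where cKO replicate 1 lay inside the control range. Without integration, the NSC-like cells left held Serpina3n at 27.7 to 59.2 CPM in control and 40.4 to 52.7 CPM in cKO, with means of 43.4 and 44.6 CPM. In oligodendrocyte-like cells Serpina3n was 27.4 to 83.4 CPM in control and 36.4 to 61.6 CPM in cKO. The ranges overlapped in each of these types.

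The DKO library stood apart for Serpina3n. It held 9.44 CPM (6.37 to 13.5) in astrocyte-like cells, 11.3 CPM (9.21 to 13.7) in NSC-like cells, 3.14 CPM (1.35 to 6.18) in ependymal-like cells and 4.03 CPM (2.08 to 7.03) in OPC-like cells. In oligodendrocyte-like cells it was 0.979 CPM (0.560 to 1.59), below the lowest of the other 6 libraries at 27.4 CPM. The share of oligodendrocyte-like cells with a Serpina3n UMI was 1.76% in that library, against 19.1% to 48.7% in control and 30.2% to 43.3% in cKO. Ptx3 in astrocyte-like cells of the same library lay within the cKO range, as given above. With 1 DKO library there is no test, and the deletion of Vcam1 cannot be told apart from any other property of this pool of mice. The other 9 serpin A3 family genes in the files, which can share reads with Serpina3n, had 0 to 21 UMIs each over all sums, against 9583 for Serpina3n. The genes most like Serpina3n were Ttyh1 (0.82), Arhgef19 (0.82) and Pcsk6 (0.82).

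The neuronal pentraxins marked different cells. Among the named types Nptx1 was highest in neuron-like cells, at 42.0, 27.4 and 31.7 CPM in control and 35.6, 52.9 and 32.8 CPM in cKO. The groups overlapped, with a log2 fold change of 0.30 ± 0.24 and an adjusted p of 0.999. In the other 10 named types it did not exceed 6.0 CPM in any library. In control replicate 2, however, the unnamed cluster 10 held 59 of the 166 Nptx1 UMIs, at 28.6 CPM, and neuron-like cells 79. Nptxr was also highest in neuron-like cells, at 27.7 to 54.4 CPM in control and 31.7 to 52.9 CPM in cKO. It was lower in ependymal-like cells, at 11.8 to 13.7 CPM in control and 11.5 to 13.6 CPM in cKO, a log2 fold change of 0.04 ± 0.22. The genes most like Nptx1 were Lingo3 (0.94), Rxrg (0.93) and Ryr3 (0.93), and those most like Nptxr were Hap1 (0.87), Klhl13 (0.86) and Chchd4 (0.84).

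In control, the mean of Nptx2 among the named types was instead highest in NSC-like and TAP-like cells, at 56.9 and 50.8 CPM, while in cKO the means were 26.4 and 28.6 CPM there, 30.8 CPM in astrocyte-like and 28.7 CPM in neuron-like cells. The unnamed cluster 8 held more, 90.8, 112.3 and 54.4 CPM in control and 57.6, 34.3 and 35.6 CPM in cKO, with cKO replicate 1 inside the control range. The share of its cells with a Nptx2 UMI, thinned to 3000 UMIs, was 15.2% to 27.9% in control and 5.51% to 13.6% in cKO, and was not tested. In NSC-like cells it was 56.7, 83.3 and 30.7 CPM in control and 46.6, 15.3 and 17.4 CPM in cKO, so cKO replicate 1 lay inside the control range. In TAP-like cells it was 63.4, 56.5 and 32.4 CPM in control and 39.9, 17.6 and 28.4 CPM in cKO, with a log2 fold change of -0.70 ± 0.30 and an adjusted p of 0.765. In neuron-like cells the direction was the other way, 9.8 to 21.9 CPM in control and 14.4 to 46.5 CPM in cKO (log2 0.90 ± 0.40, adjusted p 0.999). In astrocyte-like cells it was 17.0 to 51.5 CPM and 28.7 to 32.7 CPM. None of these differences was called, and the groups overlapped in each. With no filter on low counts Nptx2 was called lower in TAP-like cells (log2 -0.71, adjusted p 0.0048). In 2 types at low levels the groups of a neuronal pentraxin did not overlap. Nptx2 in endothelial-like cells was 7.54, 3.19 and 3.32 CPM in control and 1.20, 0 and 0.956 CPM in cKO (log2 -2.29 ± 0.84, unadjusted p 0.016, adjusted p 0.99975 by edgeR), and 7.09% of genes tested there were below control in this way. Nptxr in neuroblast-like cells was 5.11 to 5.44 CPM in control and 5.96 to 10.2 CPM in cKO (log2 0.61 ± 0.32, adjusted p 0.615), a pattern in the direction given above for 5.13% of genes. The genes most like Nptx2 were Rgs20 (0.90), Shisa2 (0.87) and Bmper (0.84).

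**Figure D4:**
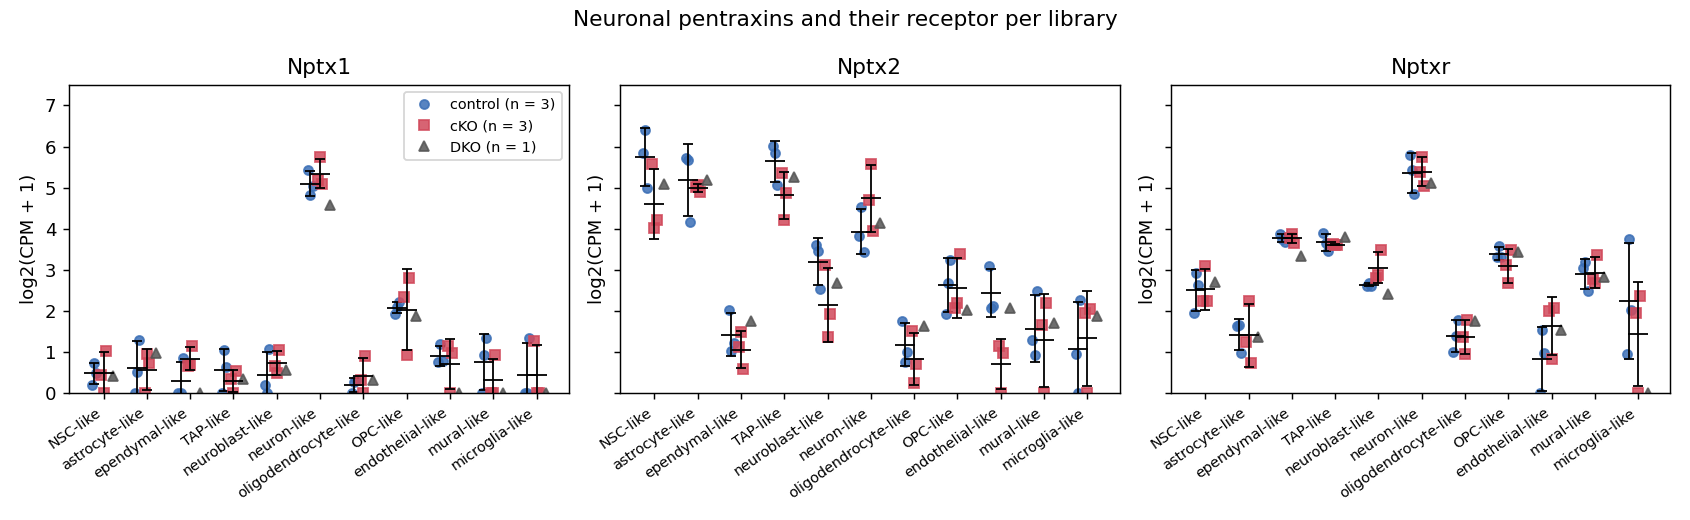
Nptx1, Nptx2 and Nptxr as log2(CPM + 1) per library in 11 cell types, with the mean and SD of each group of 3. Nptx1 and Nptxr peak in neuron-like cells, while Nptx2 reaches 83.3 CPM in control NSC-like cells.

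C3 and Lcn2 were scarce. Among the named types C3 was highest in ependymal-like cells, at 7.0, 12.5 and 10.4 CPM in control, 10.97, 8.3 and 5.4 CPM in cKO and 7.4 CPM in the DKO library. The groups overlapped, with a log2 fold change of -0.19 ± 0.33 and an adjusted p of 0.937. The unnamed cluster 10 held C3 at 8.36 to 33.4 CPM in control and 4.20 to 8.87 CPM in cKO, and 69 of the 91 C3 UMIs of control replicate 2, against 12 in its ependymal-like cells. In astrocyte-like and NSC-like cells C3 was 0 to 0.5 CPM and 0 to 1.3 CPM. The genes most like C3 were Col8a2 (0.92), Frmpd2 (0.92) and Tsnaxip1 (0.92), and those most like Lcn2 were Gm32688 (0.88), Flt4 (0.87) and Fgfbp1 (0.87).

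Among the named types the group means of Lcn2 were highest in endothelial-like cells, at 8.9, 7.0 and 13.5 CPM in control, 4.8, 267.8 and 10.2 CPM in cKO and 3.0 CPM in the DKO library. Only cKO replicate 2 was high, and the log2 fold change of 3.16 ± 1.86 (adjusted p 0.99975) became -0.31 without it. In that library 17 of 166 endothelial-like cells (10.2%, exact 95% interval 6.08% to 15.9%) had a Lcn2 UMI, against 1.00% to 3.57% in the other libraries. The 5 neutrophil markers S100a8, S100a9, Retnlg, Camp and Ngp summed to 59.3 CPM there and to 0 to 5.70 CPM in control, and their part in the Lcn2 value was not tested. In mural-like cells Lcn2 was 1.45 to 5.35 CPM in control and 7.23, 20.4 and 4.41 CPM in cKO, with a log2 fold change of 1.504 (unadjusted p 0.046, adjusted p 0.99949 by edgeR). There 8 of 76 cells of cKO replicate 2 (10.5%) had a Lcn2 UMI, and 1.43% after thinning to 3000 UMIs. In astrocyte-like cells Lcn2 was 0 to 0.5 CPM.

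Across the members, 46 of the 80 pairs of gene and type outside NSC-like cells passed the filter on low counts, and 2 were called: Ptx3 higher and C4b lower, both in astrocyte-like cells. Over all genes, 0.142% of the 125963 pairs tested in these types were called. A pair that passed only through the group where it is high had to differ, so the 46 are not read as a sample of all pairs. In the DESeq2 fit 6 pairs were called, against 0.348% of all pairs tested, and with no filter 7, against 0.695%.

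The wider reactive lists in astrocyte-like cells are set beside all genes tested there, of which 1.03% were called higher and 0.206% lower. With so small a number of listed genes tested, nothing is read from the counts of calls. Of 13 pan-reactive glia genes 8 were tested and 0 called (2 at an unadjusted p under 0.05, as were 9.89% of all genes), with a median log2 fold change of 0.31 against -0.0030 over all genes. Gfap, the glial intermediate filament, changed by -0.05 (adjusted p 0.979) and Vim, the other glial filament, by 0.67 (adjusted p 0.380). Of 12 A1 genes 6 were tested and 0 called (4 at an unadjusted p under 0.05, 2 of them higher and 2 lower), with a median of -0.73, H2-D1 (a class I histocompatibility gene) at -0.54. Of 12 A2 genes 5 were tested, and Ptx3 itself was the single one called. Of 28 complement genes 13 were tested, and C4b was the single one called, with the chaperone Clu at -0.80 (adjusted p 0.117), Cr1l at -0.37 and Csmd1 at -0.19. Of these 13, 4 were higher and 9 lower, with a median of -0.37.

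Among the 23 NF-kB and STAT3 pathway genes, 16 were tested in astrocyte-like cells, and Cebpb, a transcription factor of the acute phase response, fell. Its log2 fold change was -1.33 ± 0.26 with an adjusted p of 0.015, from 20.3 to 24.5 CPM in control to 6.54 to 10.9 CPM in cKO. In NSC-like cells, by description, Cebpb changed by -0.22 and the groups overlapped. The fall of C4b depended on how astrocyte-like cells were separated from NSC-like cells, and whether that of Cebpb did was not tested. Cebpd, a relative of Cebpb, rose in ependymal-like cells, where 19 genes of this list were tested. It was 6.25 to 7.996 CPM in control and 23.1 to 33.0 CPM in cKO (log2 1.86 ± 0.24, adjusted p 0.013 by edgeR). That call was lost without control replicate 2 and without control replicate 3, where no gene was called in ependymal-like cells. Nfkbiz, a nuclear inhibitor-like protein of the NF-kB pathway, was at -1.31 in ependymal-like cells (adjusted p 0.0876), Cebpb at -0.60 and Il6ra at -0.47, none called. Cebpd changed by 0.41, Rela by 0.27, Stat3 by 0.30 and Tnfrsf1a, a receptor of tumour necrosis factor, by 0.43 in astrocyte-like cells, none called. Of the 16 listed genes tested there, 7 were higher and 9 lower, with a median of -0.06. Of the 14 partners of Ptx3 and matrix genes, 6 were tested in astrocyte-like cells and 0 called (2 at an unadjusted p under 0.05). Itih5, which links to hyaluronan, changed by 1.08 (adjusted p 0.132), Itih3, of the same family, by -0.81 (adjusted p 0.158) and Tnfaip6, a partner of Ptx3 in the hyaluronan matrix, by 0.30.

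In ependymal-like cells the pan-reactive list had 9 genes tested and 0 called (4 at an unadjusted p under 0.05, as were 8.6% of all genes), with a median of 0.26. Gfap changed by 1.13 (adjusted p 0.0847) and Cp, the ferroxidase ceruloplasmin, by 1.41 (adjusted p 0.104). The other two at an unadjusted p under 0.05 were lower, Cd44, a hyaluronan receptor, at -0.69 (adjusted p 0.357) and Cxcl10, a chemokine named after its values were seen, at -2.28 (adjusted p 0.336). Hspb1, a small heat shock protein, was at -0.43. The A1 list had 10 tested and 0 called (1 at an unadjusted p under 0.05), a median of -0.56, with H2-D1 at -1.05 (adjusted p 0.0876). In the other 8 types outside NSC-like cells, edgeR called 0 of 521 pairs of listed gene and type. Of these, 53 (10.2%) had an unadjusted p under 0.05, against 4.15% of all pairs tested in these types. The pairs pool all lists, those of pentraxins and immediate early genes among them. The 53 include Ptx3, which chose the set, in TAP-, neuroblast-, neuron-, oligodendrocyte- and endothelial-like cells, so nothing is read from this share. The 10 immediate early genes, a sign of dissociation, had medians of -0.22 in astrocyte-like and -0.67 in ependymal-like cells, with 8 of 9 and 10 of 10 lower in cKO and 0 called (1 and 6 at an unadjusted p under 0.05). Their part in the results above was not tested.

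**Figure D5:**
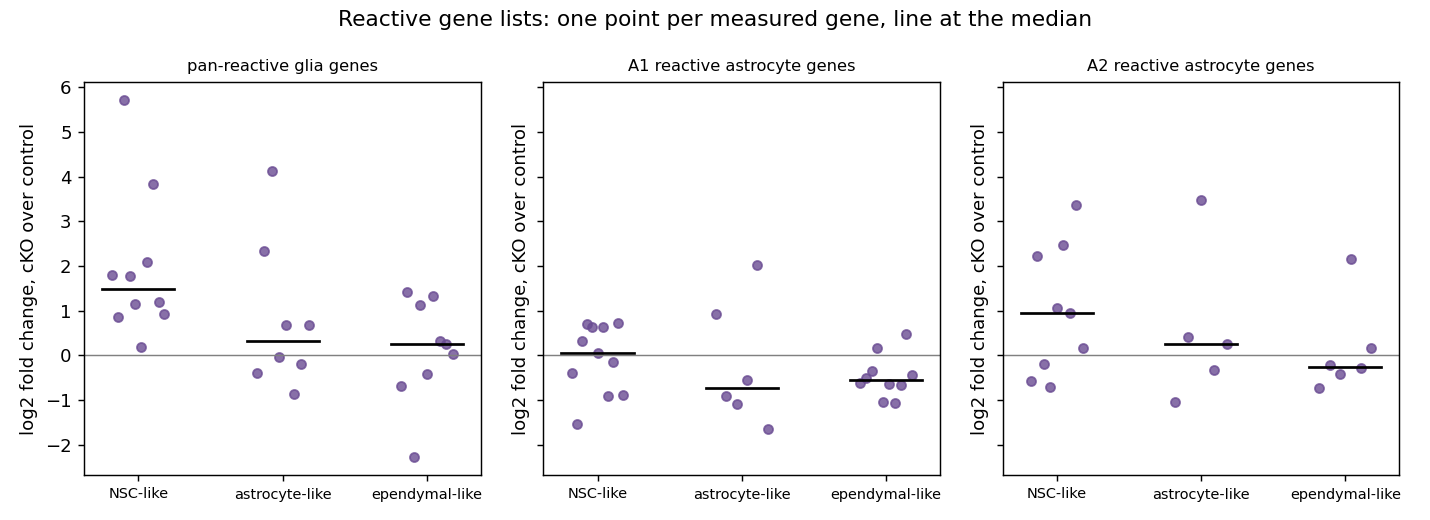
Log2 fold change, cKO over control, of each measured gene of the pan-reactive, A1 and A2 lists in NSC-like, astrocyte-like and ependymal-like cells, with a line at the median. The pan-reactive median is 1.49 in NSC-like, 0.31 in astrocyte-like and 0.26 in ependymal-like cells, and all 10 pan-reactive genes in NSC-like cells lie above 0. The NSC-like contrast chose the set and is shown as a description.

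In NSC-like cells, by description only, all 10 measured pan-reactive genes had a log2 fold change above 0, with a median of 1.49 against -0.0053 over all genes. A gene that passed the filter on low counts only through the cKO libraries had to lie above 0, so nothing is read from that count. Without integration the NSC-like cells were not the same cells, as given above. Serpina3n of this list then had means of 43.4 CPM in control and 44.6 CPM in cKO. In 5 of the 10 every cKO library was above all control libraries, as for 6.88% of all genes in these cells, and in the other 5, Gfap and Serpina3n among them, the groups overlapped. Gfap was 277.0 to 438.7 CPM in control and 371.0 to 1033 CPM in cKO, and Vim 452.3 to 596.6 and 699.2 to 1084 CPM. Of the AMPA receptor subunits, the receptors that neuronal pentraxins cluster, Gria1 was 4.37 to 8.23 CPM in control and 36.9 to 66.5 CPM in cKO. The 11 A1 genes measured had a median of 0.05 and the 9 A2 genes, Ptx3 among them, one of 0.95. The immediate early genes had a median of -0.50 in the same cells, with 8 of 10 lower in cKO and 6 below every control library, as were 9.95% of all genes, and their part in these values was not tested.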

How the data were processed

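Cells of the V-SVZ were profiled with 10x 3′ chemistry in 7 libraries. The deposited files hold raw UMI counts per gene and cell barcode, made by the authors with Cell Ranger (version 6.0.1 for 4 libraries and 6.1.1 for 3, per the file headers), not normalized. The genome was GRCm38 (mm10). Of 32285 gene IDs, 99.6% matched GENCODE vM21. Cells with 500 to 7000 genes and at most 10% mitochondrial UMIs were kept (43346 of 65049 barcodes, 23117331 to 105002786 UMIs a library). Scrublet in scanpy 1.11.5 marked 949 cells (2.19%), which stayed in; its automatic threshold failed in 1 library, and their removal was an alternative.

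Libraries were integrated by anchors in Seurat 5.3.0 (2000 features without the 8 genes, 30 components, resolution 0.15), giving 16 clusters, 13 of them named. A name needed at least 3 of its markers in at least 10% of cells at a log2 difference of 1 or more. A cluster whose depth was under 1 in 3 of its libraries' medians was left unnamed, as were clusters 3 and 10. UMIs were summed per library and type (at least 10 cells). Sums were compared in edgeR 4.0.16 (quasi-likelihood, filterByExpr, TMM) with all 7 libraries in 1 fit, Benjamini-Hochberg at 0.05 over all genes of a type. DESeq2 1.42.0 was an alternative. Exact two-sided permutation tests of log2(CPM + 1) for 3 against 3 libraries reach 0.1 at the smallest, so they were not used for calls. In simulated data, 200 genes averaging 4 or more on the log2 CPM scale were changed by 1 log2 unit in the cKO and DKO libraries. The fit found 138 in astrocyte-like and 150 in ependymal-like cells, with 10 and 13 false calls. Changes in genes of lower level were not simulated.

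The members, markers and lists were chosen with earlier results of these data known. Named genes were the 8 members, listed genes called outside NSC-like cells, up to 4 a list with the largest change among those averaging 4 or more on the log2 CPM scale, and the genes most like a member. Replicates are separate pools, and p-values measure the spread between pools. Deviations of same-numbered control and cKO libraries from their group means were correlated across genes. The correlation was above 0.1 for all 3 numbers only in oligodendrocyte-, endothelial-, mural- and microglia-like cells (0.10 to 0.44). The labels give a shared number and no pairing, so the numbers were not taken as a pairing. The smallest depth at which 3 counts are seen differs by library and type, and intervals cover counting error only.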

Additional observations from a re-analysis of the deposited data

Results flagged for a closer look

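The effect of the cKO label on C4b differed between astrocyte-like and ependymal-like cells by -2.82 on the log2 scale (edgeR interaction test, adjusted p 0.027, lost without any control replicate or without cKO replicate 2). The astrocyte-like side of this difference was 0.052 (adjusted p 0.96) when cells were assigned by marker genes.

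Clusters left unnamed were outside the comparisons, and in 5 of 24 pairs of member and cluster every cKO library lay above all control libraries, none of them tested. Of the 24 pairs, 9 reached a mean of 10 CPM in cKO, a limit that favours this direction, and the 5 were among them. Of the pairs of any gene and cluster at that level, 6.03% showed the pattern. That share is given for scale, and nothing is read from the count. In cluster 8 (2142 cells led by Mcm2, Dll3 and Gsx1), Ptx3 had a mean of 169.1 CPM in cKO, from 63.4 to 225.5 CPM against 15.3 to 19.9 CPM in control. In cluster 3 (3437 shallow cells led by haemoglobin genes, C4b and Gfap), the cKO means were 83.1 CPM for Ptx3, 63.6 CPM for Serpina3n and 134.5 CPM for C4b, against control ranges of 9.3 to 25.3, 16.4 to 27.2 and 59.4 to 82.3 CPM. In cluster 10 the cKO mean of Lcn2 was 65.1 CPM, but its UMIs came from 2, 1 and 1 cells in the cKO libraries.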

How the results depend on the processing

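Ptx3 in astrocyte-like cells kept its direction under every setting and its call under all but 1, at 1.66 on the log2 scale without integration. Leaving out 1 library at a time gave 3.20 to 3.78. C4b in astrocyte-like cells was -0.37 and not called without integration and 0.052 (adjusted p 0.96) with the marker gate, and leaving out 1 library gave -1.42 to -1.08. C4b in ependymal-like cells became called with DESeq2 (1.67), with no filter (1.69), with the replicate block (1.67) and without cKO replicate 1, with 1.14 to 2.04 on leaving out 1 library. The C4b difference between the types ran from -3.35 to -2.13 on leaving out 1 library. The number of called pairs was 2, and 6 with DESeq2, 7 with no filter, 4 with the replicate block, 3 at resolution 0.3, 0 without integration and 2 to 5 on leaving out 1 library. Ptx3 in ependymal-like cells was 1.54 to 2.84 and its difference between the types 0.51 to 1.81 on leaving out 1 library. In ependymal-like cells it was 3.44 at a mitochondrial limit of 5%. On the log2(CPM + 1) scale it was 0.80 within Cell Ranger 6.0.1 and 3.25 within 6.1.1.

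Among the 17 pairs of member and type recomputed, the uncalled values that changed sign were Serpina3n in astrocyte-like cells (0.069 without integration, 0.046 with the marker gate, -0.40 to 0.034 on leaving out 1 library), Nptxr in neuron-like cells (-0.0100 at a mitochondrial limit of 5%, -0.035 at resolution 0.3, -0.14 to 0.26 on leaving out 1 library, -0.046 within Cell Ranger 6.0.1), Lcn2 in endothelial-like cells (-0.31 to 3.75 on leaving out 1 library, -0.38 within Cell Ranger 6.1.1) and Nptx2 in astrocyte-like cells (-0.30, but 0.72 within Cell Ranger 6.1.1). The cause was not tested. The labels give same-numbered libraries no pairing beyond the number, so the replicate block was an alternative only. It added calls of C4b in ependymal-like and Ptx3 in neuroblast-like cells (2.06). Depth limits genes near 1 CPM, and the thinned share of astrocyte-like cells with a Ptx3 UMI was 1.44% in control and 18.6% in cKO at the median.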

Other observations

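S100a10, a listed A2 gene chosen here after its values were seen, was high in NSC-like and astrocyte-like cells of the DKO library. It was 141.3 CPM in NSC-like cells of the DKO library, against 5.88 to 14.4 CPM in control and 14.4 to 24.7 CPM in cKO, and 40.3 CPM in astrocyte-like cells, against 1.25 to 6.81 CPM and 1.81 to 4.33 CPM. In ependymal-like cells, where the gene is abundant, the DKO library held 192.4 CPM, within the control range of 95.4 to 195.7 CPM, and in oligodendrocyte-like cells 5.94 CPM, within the control range of 1.76 to 7.38 CPM. With 1 DKO library none of this was tested.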
